A study of Mus musculus with 19 samples.

Results

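Kruppel-like factors (KLFs) are zinc-finger transcription factors that bind CACCC boxes and GC-rich sites in DNA. The set described here was the 10 members with proposed roles in fat cell formation, Klf2, Klf3, Klf4, Klf5, Klf6, Klf7, Klf9, Klf10, Klf13 and Klf15, out of 22180 genes measured. A member was read from the transcript cluster, the unit of probes on the array, that the platform annotation pairs with its symbol alone. All 10 were found, and no filter on low values was applied. For Klf7, which has 2 such clusters, the one with the higher mean over 19 arrays was used (6.39 against 2.87).

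The fibroblast line 3T3-L1 turns into fat cells under a hormone cocktail, and much of what is known of KLFs in fat comes from it. In that work Klf4 and Klf5 belong to the cascade in which C/EBP beta and C/EBP delta lead to Pparg, the master regulator of fat cells. Klf6, Klf9 and Klf15 are also described as promoting the fat cell programme, whereas Klf2, Klf3 and Klf7 are described as restraining it. Klf9 and Klf15 are known glucocorticoid targets, Klf10 is an early gene of TGF-beta signalling, and Klf13 is best known from lymphocytes.

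RNA was measured on 19 Affymetrix arrays. The cell arrays held wild-type (WT) parental 3T3-L1 and MED1-KO 3T3-L1 made with CRISPR/Cas9, on day 0 and day 2 of differentiation by the sample titles, with 2 arrays in each of the 4 groups. MED1 is a subunit of Mediator, the complex that connects transcription factors with RNA polymerase II. Knockout RNA was pooled from individual clones, so differences that arose in cloning cannot be told apart from MED1 loss. Embryonic interscapular brown fat, the heat-producing fat, was taken at E17.5 from Myf5CreMed1f/w embryos (control, 3 arrays) and Myf5CreMed1f/f embryos (knockout, 4 arrays). Both groups carry Cre, driven by Myf5 in muscle and brown fat precursors, and the control has 1 floxed allele. Adult interscapular brown fat was taken at 10 weeks from Med1f/f mice without Cre (control, 2 arrays) and AdipoqCreMed1f/f mice (knockout, 2 arrays), where Cre works in mature adipocytes.

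The signals are log2 values from RMA, which corrects and summarises probe intensities. The array medians lay between 4.69 and 4.79 in cells, 3.49 and 3.57 in embryonic and 2.87 and 2.89 in adult brown fat, so levels are not set against each other across these experiments. Differences were tested with limma, and a gene is called where its Benjamini-Hochberg adjusted p over all 22180 genes is under 0.05. Values after ± are standard errors. Labels do not say that replicates were separate cultures or animals, so p-values measure the spread between arrays, which may be technical. Title and source label give opposite days for 4 of 8 cell arrays. By their source label the arrays titled day 2 replicate 1 held unstimulated cells, and those titled day 0 replicate 2 stimulated cells. Days follow the titles here, and each day-specific value named for a member is also given by the source label. A group by that label mixes 1 array of each title day.

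Med1 checked the genotypes. Its signal was 2.47-fold lower in knockout cells over 4 pairs (adjusted p = 0.0011), and every knockout array lay below every wild-type array. In embryonic fat the groups overlapped, from 6.94 to 7.82 in controls and from 6.88 to 7.10 in knockouts (log2 difference -0.35 ± 0.19, adjusted p = 0.37). In adult fat the controls read 5.99 and 6.90 and the knockouts 5.28 and 5.13, which did not overlap (-1.24 ± 0.31, adjusted p = 0.19). Which part of Med1 the probes read is not given in the sources used here. Ucp1, the defining gene of brown fat, read 10.07 to 11.59 in embryonic controls and 7.23 to 8.34 in embryonic knockouts. In adult fat it read 12.09 and 12.50 in controls and 10.90 and 11.75 in knockouts.

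Promoters of Klf3, Klf6 and Klf9 are shown because their genes moved with the day in knockout cells, in opposite directions, and their windows differ in motif content. The sequences are the 250 bases before the RefSeq start on the plus strand of GRCm38.p6, and capitals mark matches on either strand to the KLF motif CACCC, the GC box GGGCGG, the NF-Y box CCAAT or the cAMP element core TGACG.
Klf3, chr5:64803271-64803520: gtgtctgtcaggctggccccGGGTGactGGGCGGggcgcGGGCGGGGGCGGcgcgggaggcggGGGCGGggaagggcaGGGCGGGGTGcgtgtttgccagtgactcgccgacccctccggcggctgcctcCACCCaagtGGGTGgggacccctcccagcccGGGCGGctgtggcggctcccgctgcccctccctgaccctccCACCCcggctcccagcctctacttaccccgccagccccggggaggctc
Klf6, chr13:5861239-5861488: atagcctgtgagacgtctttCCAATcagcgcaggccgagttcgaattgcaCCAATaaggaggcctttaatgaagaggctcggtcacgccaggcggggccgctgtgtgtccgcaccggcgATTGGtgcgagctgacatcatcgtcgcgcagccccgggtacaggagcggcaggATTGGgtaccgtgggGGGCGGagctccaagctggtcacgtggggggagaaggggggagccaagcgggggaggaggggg
Klf9, chr19:23140976-23141225: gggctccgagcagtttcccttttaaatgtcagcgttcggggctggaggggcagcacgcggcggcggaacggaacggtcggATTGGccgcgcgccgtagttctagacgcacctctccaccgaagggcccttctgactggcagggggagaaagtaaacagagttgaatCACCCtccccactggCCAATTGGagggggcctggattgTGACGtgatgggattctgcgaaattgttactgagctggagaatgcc

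The Klf3 window holds 5 CACCC and 6 GGGCGG matches, of which 1 CACCC match overlaps a GC box by a base, and Klf3 itself binds CACCC boxes. The Klf6 window holds 1 GGGCGG match and 4 to CCAAT. Klf9 has 1 CACCC match, 1 TGACG match and 3 CCAAT matches, of which 2 on opposite strands overlap. Of 8 members with a window in the table, 6 had the CACCC motif (52.0% of all 32851 windows of this length), 7 had the GC box (32.7%), 4 the CCAAT box (33.8%) and 5 the cAMP element core (17.8%). AGAACA, an arm of the glucocorticoid receptor's element, was in 0 of the 8 windows and in 16.1% of all, and TATAAA in 0 of 8 and 12.4%. TTGCG, part of the C/EBP site, was in Klf7 alone among the 8, and in 14.5% of all windows. A match is a run of letters and was not tested for binding.

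The first comparison asked which members change over the first 2 days of differentiation. In wild-type cells 3 of 10 members were called, Klf5 higher and Klf7 and Klf3 lower, where limma called 9.07% of all genes (3.44% higher and 5.64% lower). In knockout cells 5 of 10 were called, Klf5 and Klf9 higher and Klf7, Klf6 and Klf3 lower, where 5.7% of all genes were called (2.14% higher and 3.57% lower). By the source label 0 of 10 members were called in either genotype, and 0 of all genes (at an unadjusted p under 0.05, 650 genes in wild-type and 559 in knockout cells).

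Klf5 lies at chr14:99298691-99313412 (GRCm38.p6) and encodes a factor that binds the Pparg promoter. Its signal in wild-type cells was 5.56 and 5.83 on day 0 and 8.55 and 8.21 on day 2. In knockout cells it was 5.94 and 6.15 on day 0 and 8.19 and 8.50 on day 2. The day 2 arrays lay above all day 0 arrays in both genotypes. Klf5 rose 6.43-fold in wild-type cells (2.69 ± 0.17, 95% interval 2.29 to 3.08, adjusted p = 4.5e-05) and 4.92-fold in knockout cells (2.3 ± 0.17, 1.91 to 2.69, adjusted p = 1.6e-04). It stayed called whichever array of the 8 was left out. Its differences by the source label were -0.03 and 0.25. The response in knockout minus that in wild-type cells was -0.39 (95% interval -0.94 to 0.17, adjusted p = 1), and 0.29 by the source label, so a difference between genotypes was not shown.

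Klf9 (chr19:23141226-23168129) encodes a factor that glucocorticoids induce in many tissues. It read 8.35 and 8.14 on day 0 and 9.25 and 8.73 on day 2 in wild-type cells. In knockout cells it read 8.60 and 8.16 on day 0 and 9.52 and 9.17 on day 2. Day 2 lay above day 0 in both genotypes, and the knockout contrast passed (0.96 ± 0.22, adjusted p = 0.033) while the wild-type contrast did not (0.75 ± 0.22, adjusted p = 0.067). The response in knockout minus wild-type cells was 0.21 (95% interval -0.48 to 0.91, adjusted p = 1), and -0.03 by the source label. The knockout call was lost without any 1 of the 4 knockout arrays (0.74 to 1.19, adjusted p from 0.053 to 0.22) and in a fit of all 19 arrays (0.13). In wild-type cells Klf9 was called without day 2 replicate 2 (1.01, adjusted p = 0.046) and, at the edge of the threshold, with an intensity trend and robust fitting (adjusted p rounded to 0.05). The source label gave differences of -0.36 and -0.4.

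Klf7 (chr1:64029448-64122345) is described as a brake on fat cell formation. Its wild-type arrays read 8.14 and 7.80 on day 0 and 7.07 and 6.82 on day 2, and its knockout arrays 8.25 and 7.74 on day 0 and 7.03 and 6.78 on day 2. All day 2 arrays lay below all day 0 arrays. Klf7 fell 2.03-fold in wild-type cells (-1.02 ± 0.2, adjusted p = 0.012) and 2.13-fold in knockout cells (-1.09 ± 0.2, adjusted p = 0.013). The wild-type call was lost without day 0 replicate 1 (-0.85, adjusted p = 0.08) or day 2 replicate 2 (-0.9, 0.084). The knockout call was lost without day 0 replicate 1 (-0.84, 0.1) or day 2 replicate 2 (-0.97, 0.099), and with both Klf7 clusters averaged (-0.53, 0.094). Under the source label Klf7 differed by -0.3 and -0.38.

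Klf3 (chr5:64803521-64832901) is a repressor that recruits CtBP. It read 8.50 and 8.49 on day 0 and 7.88 and 7.71 on day 2 in wild-type cells, and 8.60 and 8.24 against 7.70 and 7.75 in knockout cells. The days did not overlap. Klf3 fell 1.62-fold in wild-type (-0.7 ± 0.15, adjusted p = 0.018) and 1.61-fold in knockout cells (-0.69 ± 0.15, adjusted p = 0.026). Leaving out wild-type day 0 replicate 1 (-0.7, adjusted p = 0.077), day 0 replicate 2 (-0.7, 0.082) or day 2 replicate 2 (-0.61, 0.1) lost the wild-type call. Leaving out knockout day 0 replicate 1 (-0.51, 0.21), day 2 replicate 1 (-0.66, 0.16) or day 2 replicate 2 (-0.71, 0.11) lost the other. By the source label the differences were -0.09 and -0.16.

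Klf6 (chr13:5861489-5870393) is described as a repressor of the preadipocyte gene Dlk1. It read 9.01 and 8.72 on day 0 and 8.37 and 7.81 on day 2 in wild-type cells, and 9.12 and 8.98 against 8.32 and 7.92 in knockout cells. Day 2 lay below day 0 in both genotypes, and the knockout contrast passed (-0.93 ± 0.21, adjusted p = 0.033) while the wild-type contrast had an adjusted p of 0.052 (-0.77 ± 0.21). The Klf6 response in knockout minus wild-type cells was -0.16 (95% interval -0.83 to 0.51, not called), and 0.15 by the source label. The knockout call was lost without any 1 of the 4 knockout arrays (-0.73 to -1.13, adjusted p from 0.06 to 0.21). In wild-type cells Klf6 was called without day 2 replicate 1 (-1.05, 0.026), with a filter on dim genes (0.045), with an intensity trend and robust fitting (0.038) and in the fit of all 19 arrays (0.013). By the source label the differences were -0.42 and -0.27. Dlk1 fell in knockout cells (-0.89 ± 0.21, adjusted p = 0.041) and had a value of -0.7 ± 0.21 in wild-type cells (adjusted p = 0.078). Its response in knockout minus wild-type cells was -0.19 (95% interval -0.87 to 0.48, not called). The Dlk1 call was lost under the source label (-0.38, adjusted p = 1).

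**Figure D1:**
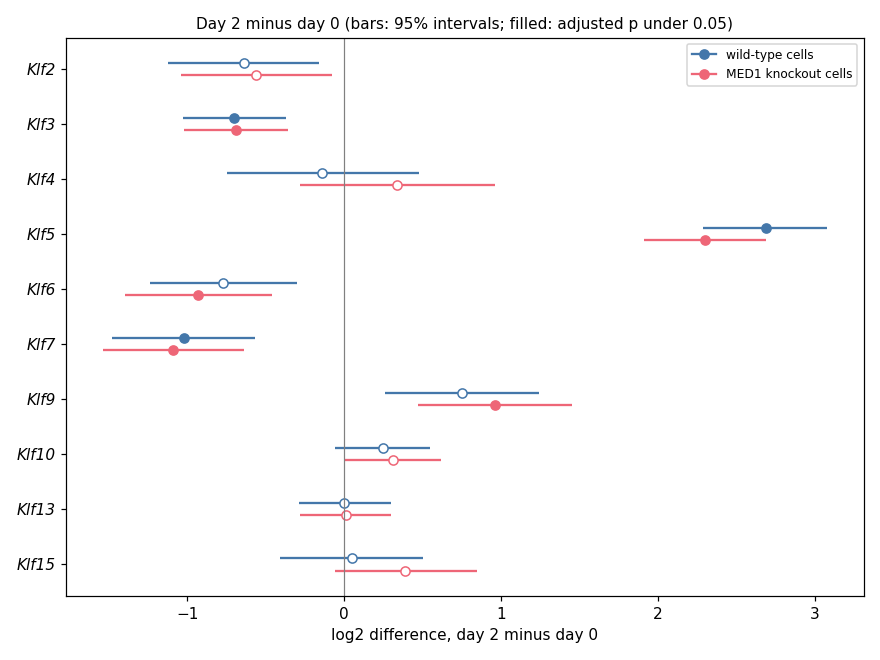
The log2 difference of day 2 minus day 0 (x axis) is plotted for the 10 members (y axis) in wild-type and knockout cells, with points for estimates, bars for 95% intervals and filled points for calls. Klf5 stands at 2.69 and 2.3, and the other members lie between -1.09 and 0.96.

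The remaining members did not pass in either genotype. Klf2, which represses the Pparg promoter, read 6.87 and 6.36 on day 0 and 5.89 and 6.06 on day 2 in wild-type cells (-0.64 ± 0.21, adjusted p = 0.11), and in knockout cells it differed by -0.56 ± 0.21 (0.21). Its days did not overlap in either genotype, and by the source label it differed by -0.17 and -0.34. Klf4, which acts with Egr2 on Cebpb in the first hours, overlapped between days in both genotypes (-0.14 ± 0.27 and 0.34 ± 0.27, adjusted p = 0.83 and 0.63), and differed by -0.36 and -0.58 under the source label. Klf10 had day 2 arrays above day 0 arrays in both (0.25 ± 0.14 and 0.31 ± 0.14, adjusted p = 0.34 and 0.28), and differed by -0.07 and -0.18 under the source label. Non-overlap of days was seen for 7 members in wild-type and 8 in knockout cells, and for 48.7% and 47.9% of all genes. Klf13 lay between 5.95 and 6.21 on all 8 arrays. Klf15 lay between 3.52 and 4.25, near the arrays' lower quartile of 3.49 to 3.56, so its signal in cells was dim.

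**Figure D2:**
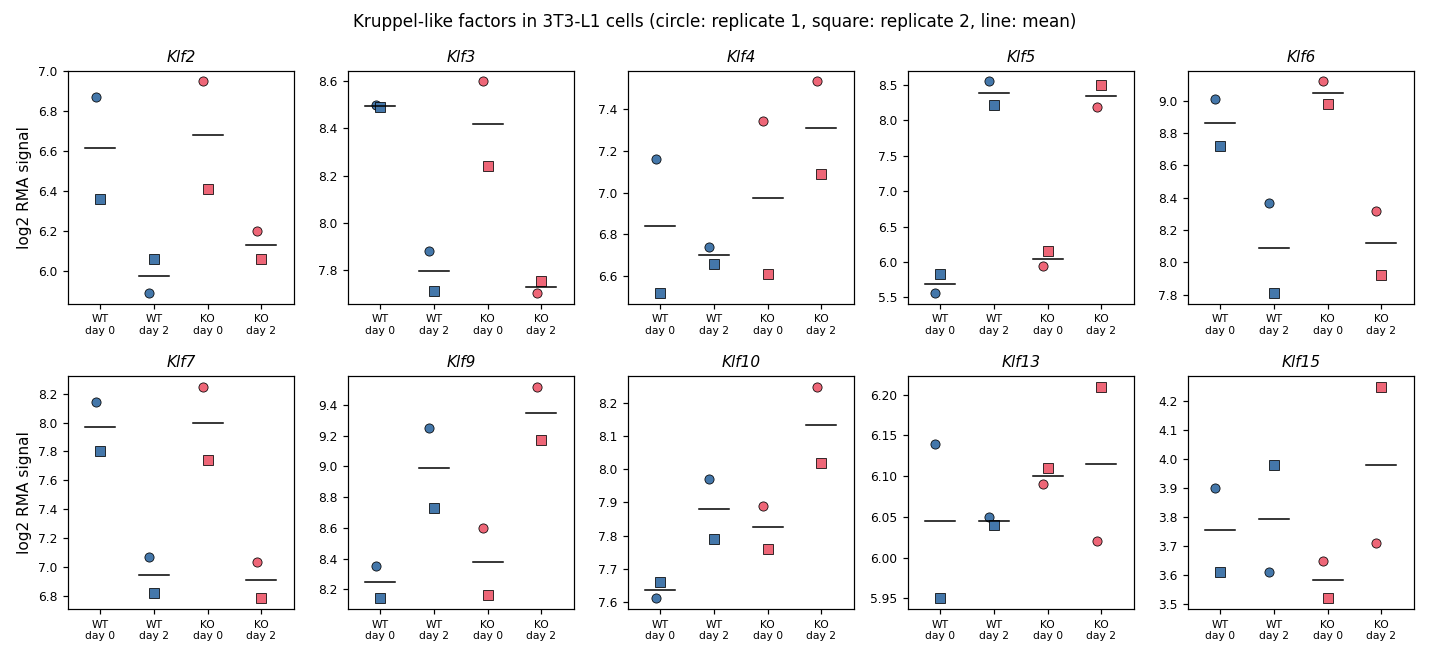
The log2 RMA signal (y axis, scaled for each gene) of the 10 members is plotted for each cell array by genotype and title day, with lines at the means of 2 arrays. The Klf5 day 2 arrays lie at 8.19 to 8.55, above the day 0 arrays at 5.56 to 6.15, and the Klf7 and Klf3 arrays lie lower on day 2.

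Genes around the KLFs in the pathway moved with the day too. Of 7 upstream regulators, Cebpb (1.84 ± 0.15, adjusted p = 1.1e-04) and Cebpd (2.78 ± 0.21, adjusted p = 9.7e-05), the C/EBP genes placed upstream of Klf5, rose in wild-type cells. Nr3c1, the glucocorticoid receptor, fell there (-0.82 ± 0.13, adjusted p = 0.005) and had a value of -0.53 ± 0.13 in knockout cells (adjusted p = 0.052). In knockout cells Cebpb and Cebpd rose, by 1.68 and 2.9. Of 12 KLF cofactors, 2 rose in each genotype, Fbxw7, a ubiquitin ligase subunit that targets Klf5 (0.75 and 0.76), and Hdac1 (0.45 and 0.57). Of 11 glucocorticoid targets, 9 rose in each genotype, with a median over the list of 2.18 in wild-type and 2.03 in knockout cells against 0.033 and 0.013 over all genes. Between genotypes, over all cell arrays, limma called 1 of these 11 and 0.289% of all genes. That target was Pdk4, lower in knockout cells (-1.33 ± 0.08, adjusted p = 7.2e-04). Of 15 immediate early genes, 4 rose in each, Nr4a1, Myc, Dusp1 and Jun. In the other KLF and SP family, 0 of 15 measured genes were called by limma in any of the 9 comparisons, and at most 3 had an unadjusted p under 0.05 in one of them. Among these genes Klf12 was higher in embryonic knockouts than in controls but missed the threshold (1.03 ± 0.2, adjusted p = 0.062).

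Among 17 measured genes proposed as KLF targets, 4 rose and 1 fell in wild-type cells and 3 rose and 2 fell in knockout cells. Fabp4, a fatty acid carrier, rose in wild-type cells (2.74 ± 0.24, adjusted p = 1.7e-04), and in knockout cells had a value of 0.82 ± 0.24 (adjusted p = 0.088). Pparg rose by 2.02 ± 0.13 in wild-type and 0.8 ± 0.13 in knockout cells, and Cebpa by 1.68 ± 0.13 and 0.76 ± 0.13. The response in knockout minus wild-type cells was -1.91 for Fabp4, -1.22 for Pparg and -0.92 for Cebpa. None of these was called in limma (adjusted p = 0.33, 0.18 and 0.52). On day 0 the knockout minus wild-type values were -0.79 for Pparg (adjusted p = 0.065), -0.44 for Cebpa (0.62) and -0.11 for Fabp4, also not called. On day 2 Fabp4 (-2.03), Pparg (-2.01) and Cebpa (-1.36) were lower in knockout than in wild-type cells (adjusted p = 0.012, 3.7e-04 and 0.0039). By the source label the day 2 values were -0.73, -1.29 and -0.97, none called (adjusted p = 1 for each), and 0 members of these lists were called in the comparisons of days.

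The patterns most like those of the 3 members called in both genotypes were looked up among genes with an SD of at least 0.5 over the 8 cell arrays. Klf5 was followed most closely by Pum3 (r = 0.995) and Agpat5 (0.994). The closest to Klf7 were Abca2 (0.994) and Lbh (0.991), and to Klf3 Fmod (0.995) and Tcea3 (0.993). These 8 arrays fall into 2 title days, which the genes share.

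The second comparison asked whether the members differ between MED1 knockout and wild-type cells. Over the 4 pairs of arrays limma called 0 of 10 members, where it called 0.289% of all genes, and 3 members had an unadjusted p under 0.05, as did 2736 of all genes. Klf4 was the member with the largest difference. Its wild-type arrays read 7.16 and 6.52 on day 0 and 6.74 and 6.66 on day 2, and its knockout arrays 7.34 and 6.61 and then 7.53 and 7.09. The knockout was higher in all 4 pairs, by 0.18 and 0.09 on day 0 and 0.79 and 0.43 on day 2 (0.37 ± 0.12, 95% interval 0.09 to 0.65, adjusted p = 0.29). Klf9 (0.24 ± 0.09, adjusted p = 0.34) and Klf10 (0.22 ± 0.08, adjusted p = 0.32) were also higher in 4 of 4 pairs. The share of all genes higher in 4 of 4 pairs was not counted, so these pair counts only describe the arrays.

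Klf5, Klf7 and Klf3, the members called for the day in both genotypes, had genotype differences of 0.16 (95% interval -0.14 to 0.46), -0.01 (-0.18 to 0.17) and -0.07 (-0.28 to 0.13). In all, 8 of 10 members had a difference above 0, against 49.8% of all genes. On day 0 alone 0 of 10 members were called (0.185% of all genes), and on day 2 alone 0 of 10 (0.266%), with 0 members under an unadjusted p of 0.05 on either day. Klf4 on day 2 had the largest value, 0.61 ± 0.27 (adjusted p = 0.61), and 0.26 by the source label. By that label 0 of 10 members were called on either day or for the difference between days. Of the difference between genotypes in the response to the day, 0 of 10 members and 0.0% of all genes were called, with 941 of all genes and 0 members at an unadjusted p under 0.05.

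**Figure D3:**
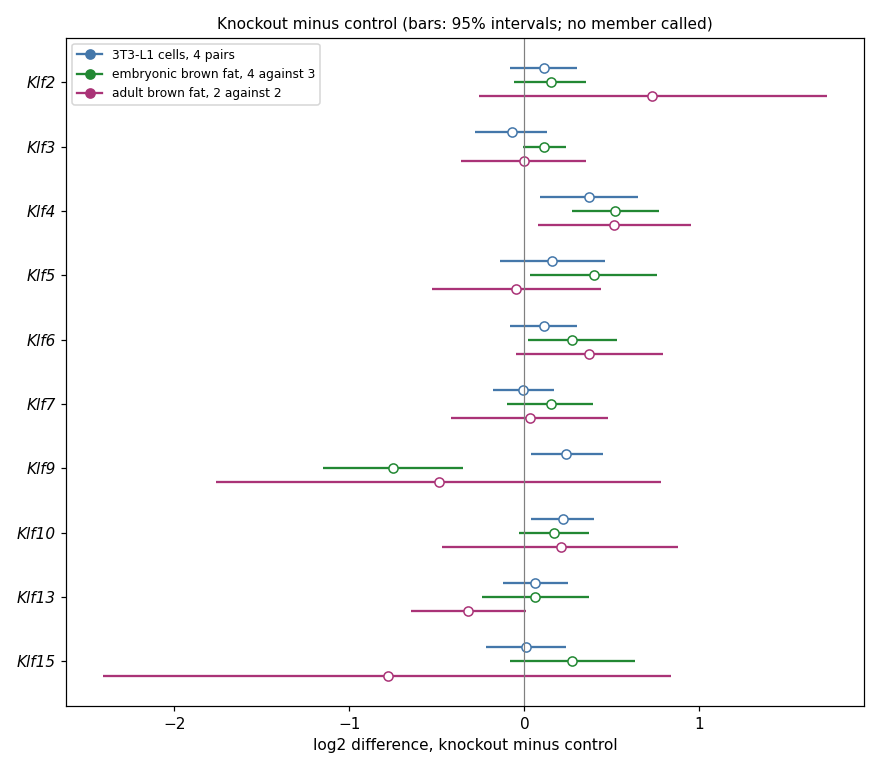
The log2 difference of knockout minus control (x axis) is plotted for the 10 members (y axis) in cells, embryonic and adult brown fat, with bars for 95% intervals. No member was called. Klf4 lies above 0 in all 3 experiments, at 0.37, 0.52 and 0.51, and Klf9 lies at 0.24 in cells, -0.75 in embryonic and -0.49 in adult fat.

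The third comparison asked the same of embryonic brown fat. Limma called 0 of 10 members, where it called 1.16% of all genes, and 4 members, like 4447 of all genes, had an unadjusted p under 0.05. In bulk tissue fewer cells of a type and less RNA per cell cannot be told apart. Klf4 read 5.21, 5.12 and 5.04 in controls and 5.78, 5.55, 5.44 and 5.82 in knockouts. The knockout arrays all lay above the controls, 1.43-fold on average (0.52 ± 0.1, 95% interval 0.27 to 0.77, unadjusted p = 0.0015, adjusted p = 0.066). Klf9 read 6.59, 6.62 and 6.97 in controls and 5.64, 6.08, 6.31 and 5.87 in knockouts. Its knockout arrays all lay below the controls, 1.69-fold on average (-0.75 ± 0.17, 95% interval -1.15 to -0.35, unadjusted p = 0.0029, adjusted p = 0.076). Both missed the threshold.

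Klf3 was the third member without overlap, at 6.90, 6.81 and 6.82 against 6.91, 6.93, 7.03 and 6.96 (0.11 ± 0.05, adjusted p = 0.29). These 3 of 10 members compare with 15.4% of all genes. Klf5 was 4.63, 3.89 and 4.28 in controls and 4.65, 4.66, 4.70 and 4.63 in knockouts (0.4 ± 0.16, adjusted p = 0.22). Klf6 (0.27 ± 0.11, 0.22), Klf15 (0.27 ± 0.15, 0.37), Klf10 (0.17), Klf2 (0.15), Klf7 (0.15) and Klf13 (0.06) overlapped. All but Klf9 had a difference above 0, 9 of 10 against 46.1% of all genes, with a median of 0.16 over the members and -0.012 over all genes.

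Marker lists moved with the embryonic genotype. The mean of 5 brown adipocyte markers was 7.39 to 8.20 in controls and 6.07 to 6.65 in knockouts, with Ucp1 and Dio2 called lower. The mean of 6 preadipocyte and fibroblast markers was 7.83 to 8.14 and 8.51 to 8.61, all 6 above 0 and Col1a1 called. The mean of 7 skeletal muscle markers was 6.24 to 7.66 and 8.06 to 8.45, all 7 above 0 and 0 called (7 at an unadjusted p under 0.05). The mean of 7 macrophage markers was 6.41 to 6.72 and 6.77 to 7.06, all 7 above 0 and 0 called (3 at an unadjusted p under 0.05). The mean of 5 general adipocyte markers was 9.85 to 10.30 and 9.42 to 9.63, all 5 below 0 and 0 called (5 at an unadjusted p under 0.05). The endothelial (7.87 to 8.32 and 7.80 to 8.12), T cell (2.9 to 3.00 and 2.71 to 2.91) and red cell lists (6.66 to 7.26 and 6.22 to 7.62) overlapped. The part of these lists in the KLF values was not tested. RMA values have no zero, so no marker reads 0. Of the 17 proposed KLF targets, 2 fell, Ucp1, which uncouples respiration (-3.14 ± 0.4, adjusted p = 0.044), and Bckdhb, of branched-chain amino acid breakdown (-0.73 ± 0.11, adjusted p = 0.046). In 7 fits that each left out 1 embryonic array, and with the replicate number as a block, limma called 0 of all genes (2991 to 4548 genes at an unadjusted p under 0.05 in the 7 fits and 3844 with the block).

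The last comparison took adult brown fat, with 2 arrays a group. Limma called 0 of 10 members and 0.0271% of all genes, 6 in number, while 1 member, Klf4, and 3013 of all genes had an unadjusted p under 0.05. Klf4 read 4.11 and 3.97 in controls and 4.72 and 4.38 in knockouts (0.51 ± 0.17, adjusted p = 0.3). Klf6 read 6.29 and 5.99 against 6.43 and 6.59 (0.37 ± 0.17, adjusted p = 0.43). Klf13 read 4.29 and 4.37 against 3.98 and 4.05 (-0.32 ± 0.13, adjusted p = 0.39). These 3 members did not overlap between groups, nor did 41.9% of all genes.

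Klf15, which takes part in glucose transport and amino acid breakdown, read 4.95 and 6.75 in controls and 4.60 and 5.53 in knockouts. Klf9 read 7.41 and 8.93 in controls and 7.50 and 7.87 in knockouts. In both, control replicate 2 was the highest of the 4 arrays, and the groups overlapped (-0.78 ± 0.64 and -0.49 ± 0.5, adjusted p = 0.71 and 0.79). Without that array the differences were 0.11 for Klf15 and 0.27 for Klf9, and without control replicate 1 they were -1.68 and -1.25. The mean of 11 glucocorticoid targets was 6.53 and 7.33 in controls and 6.40 and 6.97 in knockouts, also highest in control replicate 2. Within it Fkbp5 read 4.38, 6.24, 4.27 and 5.80 in the same order, and Zbtb16 6.27, 8.60, 6.02 and 6.89. Both were picked after their values were seen. The list was not uniform, as Cebpd read 3.09, 3.45, 3.21 and 4.28, highest in knockout replicate 2. Pdk4 read 10.83, 11.52, 9.60 and 9.32, lower in both knockouts than in both controls. Errfi1 had a higher mean in knockouts than in controls. The part of these targets in the Klf9 and Klf15 values was not tested.

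**Figure D4:**
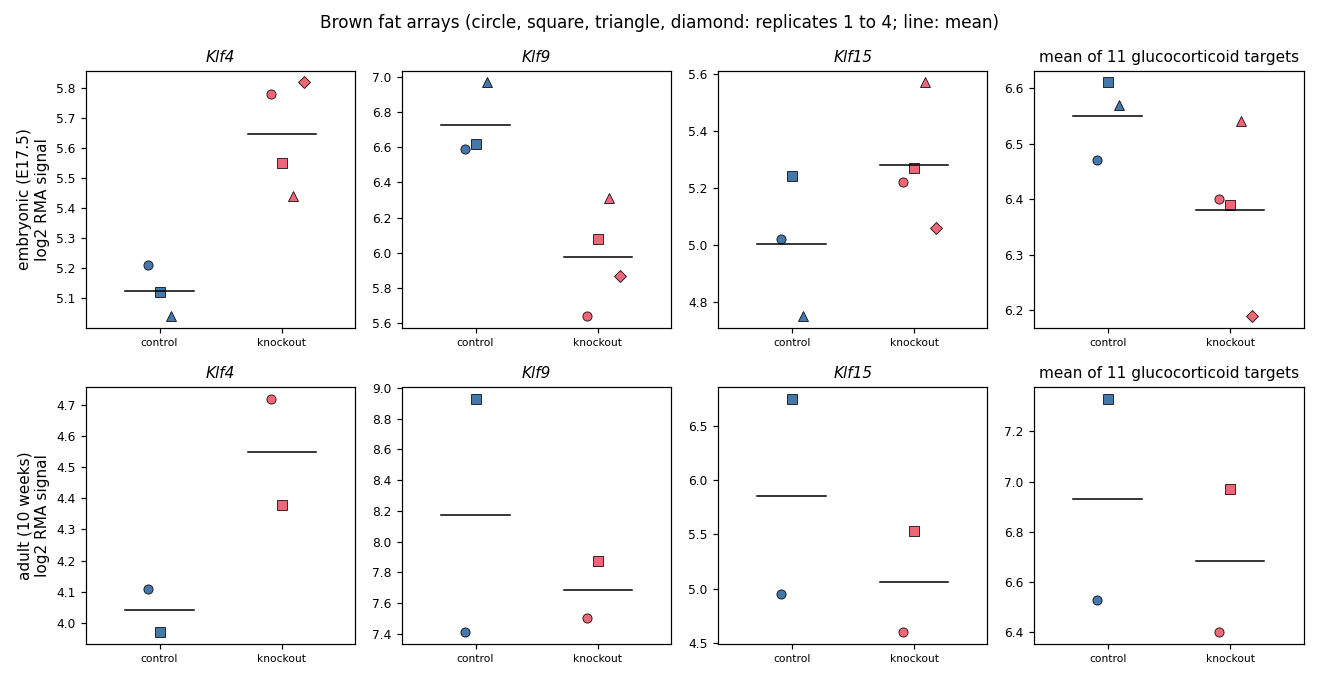
Log2 RMA signals (y axis, scaled for each panel) of Klf4, Klf9, Klf15 and the mean of 11 glucocorticoid targets are plotted by array in embryonic and adult brown fat, with lines at the group means. Embryonic Klf4 and Klf9 separate the groups, and adult control replicate 2 is highest in Klf9 (8.93), Klf15 (6.75) and the list mean (7.33).

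Klf2, an endothelial as well as a preadipocyte factor, read 4.75 and 3.85 in adult controls and 5.42 and 4.63 in knockouts (0.73 ± 0.39, adjusted p = 0.52). Klf4, Klf6 and Klf10 are also known as early response genes. The mean of 15 immediate early genes was 4.85 and 4.37 in controls and 6.12 and 4.65 in knockouts, with Egr1 at 5.26, 3.32, 7.74 and 4.19. The mean of 7 macrophage markers was 6.34 and 6.08 against 7.61 and 7.62, all 7 above 0 and 0 called (7 at an unadjusted p under 0.05). The mean of 5 brown adipocyte markers was 8.12 and 9.37 against 6.98 and 7.68, and that of 5 general adipocyte markers 10.34 and 10.62 against 10.15 and 10.14. The mean of 6 preadipocyte and fibroblast markers was 6.06 and 5.84 against 6.61 and 6.34, that of 4 T cell markers 2.96 and 2.68 against 3.18 and 3.63, and the 1 red cell marker read 3.17 and 2.99 against 3.39 and 3.38. The immediate early, endothelial and skeletal muscle lists overlapped between groups. The other lists named here did not, and neither did 41.9% of all genes. No gene of any of these lists was called in adult fat. The part of these lists in the KLF values was not tested. Of the difference between the adult and the embryonic genotype effects, 0 of 10 members were called (1.99% of all genes). In the same contrast 3 of 7 macrophage markers were called (C1qb, Adgre1 and Csf1r), and 1 of 4 T cell markers (Cd3e), all above 0. The Klf15 value was -1.06 ± 0.6 (adjusted p = 0.43). Without adult control replicate 1 that value was -1.96 and was called (adjusted p = 0.048).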

How the data were processed

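RNA of 8 cell arrays, 7 embryonic and 4 adult brown fat arrays was extracted with Trizol and prepared with a whole-transcript kit, per the labels' protocols. The authors deposited log2 values for 41345 transcript clusters. RMA and Transcriptome Analysis Console are named in the submitters' processing notes. A genome build is not given in the sources used here. Platform annotation gave 1 symbol for 23521 clusters, several for 1814 and none for 16010. The clusters with 1 symbol made 22180 genes, each read from its brightest cluster by mean over the arrays. All values were kept.

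Differences were fitted in R 4.3.3 by lmFit and eBayes of limma 3.58.1, Benjamini-Hochberg adjusted at 0.05. The cell days and genotypes by day shared a fit of 4 groups. The genotype over all cells used 4 pairs of arrays as a block, and those pairs are the same by either day label. The embryonic fit had 5 residual degrees of freedom and the adult fit 2, and the difference of their effects was taken over all 11 arrays. In fits that leave 1 array in a group, that array is assumed to vary like the others. The fits were also run on simulated data, and the outcome is not given here.

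The members and lists were chosen with earlier results of these data known. Text names every member, some of the called genes in pathway and marker lists, and genes that bear on a member. A list gene that is not named may still have been called. Fkbp5, Zbtb16 and Egr1, Klf12 in embryonic fat, and Cebpd, Pdk4 and Errfi1 in adult fat were chosen after their values were seen. Likeness was Pearson's r over the 8 cell arrays. Promoter windows and coordinates came from RefSeq on GRCm38.p6, with windows for 8 of 10 members. Alternatives were a dim-gene filter, intensity trend with robust fitting, a fit of all 19 arrays, cluster means, renewed quantile normalization, the replicate block, source label days and leaving out arrays. The number of arrays limits the precision.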

Additional observations from a re-analysis of the deposited data

Results flagged for a closer look

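Errfi1, a glucocorticoid target and feedback inhibitor of EGF receptor signalling, differed between the brown fat experiments in its knockout effect. The adult effect exceeded the embryonic effect by 1.23 ± 0.24 on the log2 scale (adjusted p = 0.032 in limma), with group means of 5.48 in adult controls and 6.71 in adult knockouts and of 5.78 in both embryonic groups. In adult fat alone it did not pass (adjusted p = 0.16). No member had such a difference. By Dixon's ratio, the gap of the end array to its neighbour over the group's range, no array of the 4 embryonic knockouts passed the critical value of 0.829 in any of the 10 members. Klf7 came near it, with replicate 4 at 6.42 above the others at 6.06 to 6.12 (ratio 0.822).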

How the results depend on the processing

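Day results rest on the titles. The mean of the 11 glucocorticoid targets was 6.96 to 7.08 on the cell arrays titled day 0 and 8.87 to 9.12 on those titled day 2. This list mean thus separated the cell arrays by title and not by source label. Each source label group mixes 1 array of each title day, so its contrasts mix the title days as well. With days by the source label 0 members were called in wild-type (3 by title) and 0 in knockout cells (5 by title). These called values changed sign under that label: Klf5 in wild-type (-0.03) and Klf9 in knockout cells (-0.4), Cebpd (-0.39 and -0.11), Nr4a1 (-1.12 and -1.1), Myc (-0.43 and -0.41), Dusp1 (-0.03 and -0.3) and Cebpa (-0.03 and -0.17) in both, Nr3c1 (0.01), Fabp4 (-0.27), Pparg (-0.16) and Fkbp5 (-0.1) in wild-type, and Ppargc1a (0.41) in knockout cells. Wild-type calls came to 5 with an intensity trend and robust fitting and to 5 with the replicate block, with Klf6 and Klf9 added both times (adjusted p = 0.008 and 0.0063 with the block). The cause was not tested. Leaving out 1 array gave 1 to 4 members in wild-type cells, 1 to 5 in knockout cells and 0 to 1 for the adult minus the embryonic effect. No member was called for the genotype under any setting run within cells, embryonic or adult fat. Same-numbered arrays shared deviations unevenly (r from 0.03 to 0.35 in cells, from -0.06 to 0.4 in embryos, and 0.33 for adult fat), so the number was not taken as a pairing in the fits by group; the cell genotype comparison has its 4 pairs as a block. Calls over all genes moved by more than 1.5 times: for cell genotype from 64 to 245 with the trend, and to 9 with neither block nor title days, a setting chosen after seeing the data; on day 0 from 41 to 88 and on day 2 from 59 to 120 in the fit of all 19 arrays, and to 1 and 0 by the source label; for embryonic fat from 257 to 412 with the filter, 1527 in the fit of all 19 arrays and 0 with the block; for adult fat from 6 to 57, 78, 2049, 64 and 139 with the filter, the trend, the fit of all 19 arrays, renewed normalization and the block; for the adult minus the embryonic effect from 441 to 773 in the fit of all 19 arrays; and for the genotype by day difference from 0 to 11 there and 1 with the block. Leaving out 1 array (or 1 pair) gave, over all genes, 1143 to 1714 calls for the day in wild-type (2012 with all) and 496 to 1282 in knockout cells (1265), 20 to 32 for cell genotype, 3 to 40 on day 0, 12 to 47 on day 2, 0 to 2 for genotype by day, 0 in adult fat (1984 to 2333 genes at an unadjusted p under 0.05 in limma) and 206 to 524 for the adult minus the embryonic effect. Limits are 2 arrays a group in cells and adult fat, and the dim Klf15 signal in cells.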
